A study of Homo sapiens with 28 samples.

Results

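The genes described here are 10 microbe-sensing and antimicrobial genes of epithelial cells: CD14, LY96, TLR1, TLR2, TLR3, TLR5, NOD1, NOD2, CAMP and DEFB1. They were chosen by name, and each was looked up by its symbol among the 23533 genes of the RNA tables, where all 10 were found. The cells were EPC2, an immortalised human esophageal epithelial line. For 6 h they received no agent, 100 ng/ml of IL-13, 100 nM of vitamin D, or the 2 together, and the sources used here do not give the form of vitamin D. RNA sequencing covered 12 samples, 3 per group, of which the tables give 1 value per group. ChIP-seq covered 16 samples, 1 library for each condition. These were the histone marks H3K4me3, H3K9ac and H3K27ac in all 4 treatments, the transcription factor STAT6 without and with IL-13, and the vitamin D receptor VDR without and with vitamin D. All groups are of this 1 cell line.

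Innate immune receptors recognise molecules that microbes share. CD14 binds bacterial lipopolysaccharide and passes it to the complex of TLR4 and its partner MD-2, which LY96 encodes; CD14 also assists TLR2. At the cell surface TLR2, paired with TLR1 or TLR6, recognises bacterial lipopeptides and TLR5 recognises flagellin, while TLR3 senses double-stranded RNA in endosomes. NOD1 and NOD2 are cytosolic sensors of fragments of bacterial peptidoglycan. CAMP encodes the precursor of the antimicrobial peptide LL-37 and DEFB1 encodes beta-defensin 1, which epithelia produce. VDR is the nuclear receptor for active vitamin D and binds DNA together with RXR, commonly at paired half-sites that resemble AGGTCA, and CAMP and CD14 are long-known vitamin D targets in human cells. STAT6 is activated by IL-4 and IL-13 and binds elements of the form TTCNNNNGAA.

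CD14 and CAMP carried VDR regions at their promoters and rose with vitamin D, so the sequence before their transcription start sites is shown first. RefSeq start-site windows were held for 7 of the 10 genes (CAMP, CD14, NOD1, NOD2, TLR2, TLR3 and TLR5). The 250 bases before the start site on GRCh38.p14 are printed 5′ to 3′ on the gene's strand, with capitals for a match to a half-site or to TTCNNNGAA, the STAT element with a spacer of 3. The window for CD14 is at chr5:140633176-140633425 on the minus strand, and that for CAMP at chr3:48223245-48223494 on the plus strand.
CD14: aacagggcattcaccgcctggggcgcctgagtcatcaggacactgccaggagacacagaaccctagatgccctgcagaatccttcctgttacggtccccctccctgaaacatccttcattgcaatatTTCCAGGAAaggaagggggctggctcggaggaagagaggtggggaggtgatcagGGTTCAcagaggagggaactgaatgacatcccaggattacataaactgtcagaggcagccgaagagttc
CAMP: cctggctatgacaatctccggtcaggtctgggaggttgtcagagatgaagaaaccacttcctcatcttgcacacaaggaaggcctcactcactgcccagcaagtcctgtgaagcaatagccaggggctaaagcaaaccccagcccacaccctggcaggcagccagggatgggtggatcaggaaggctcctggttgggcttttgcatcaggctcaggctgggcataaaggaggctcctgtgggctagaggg

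The half-site AGGTCA was searched on both strands, as was its variant AGTTCA. The other variants searched were GGGTCA and, last, GGTTCA. The CD14 window held 1 match, GGTTCA on the gene's strand at positions 182 to 187 of the window, 69 bases before the start site. GGTTCA was found in 7.16% of 35116 RefSeq windows of the same length, and any of the 4 half-sites in 33.8%. The CD14 window also held 1 match to TTCNNNGAA, at positions 128 to 136; 6.57% of windows hold that motif. The CAMP window held neither. Of the other 5 genes, TLR3 had a half-site, as had 1 of the 2 NOD2 windows. The TLR3 window also matched TTCNNNGAA, from positions 73 and 201, and the windows of NOD1, NOD2, TLR2 and TLR5 did not. A pair of half-sites 3 bases apart, the classical VDR element, was found in none of these windows and in 0.0655% of all windows; the 4-base-spaced STAT6 motif TTCNNNNGAA was in none of them and in 5.38% of all windows. These windows are short and on another build than the ChIP files, so no position was carried over. In the hg19 files the strongest VDR summit at CAMP lay 462 bases before the listed 5′ end of the gene, farther out than a window of 250 bases reaches. At CD14 it lay 405 bases inside the listed gene, and the RefSeq start site lies 526 bases inside the GRCh38 gene.

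RNA levels are given as RPKM, reads scaled by transcript length and library size, so that they can be compared between genes per length. The summed RPKM was 377254 to 391648 per group; RPKM does not give read depth, and 1 value per group leaves the spread over samples unknown. Fold changes are log2 values with p-values from the authors' deposited tables, and a gene was called where the adjusted p was under 0.05. Standard errors were derived from each fold change and its p. The labels do not say whether the 3 samples of a group were separate cultures, so these p-values may reflect technical spread. As a check of the vitamin D treatment, CYP24A1, the enzyme that degrades active vitamin D, was at 0.476 RPKM untreated and 560 RPKM with vitamin D. Of 12 squamous epithelial markers, 11 reached 1 RPKM in at least 1 group (EPCAM did not), and their summed level was 33250 to 38230 RPKM. With vitamin D, 3 of these 12 markers were called higher and 5 lower, against 17.5% and 15.1% of all genes tested. The suprabasal keratin gene KRT4 went from 64.3 RPKM untreated to 242 with vitamin D, and DSG3 from 437 to 279. Of the fibroblast and endothelial markers, whose sum was lowest after both, at 9.92 RPKM, VWF was at 0.514 RPKM untreated, 1.92 after IL-13, 1.18 after vitamin D and 3.15 after both, and COL1A1 at 15.2, 9.84, 9.64 and 5.84 RPKM in that order. CLDN5 was listed at 0 untreated and was at 0.726 RPKM after both. Their part in the members' changes was not tested. The comparisons of IL-13, vitamin D and both with untreated cells share the same untreated samples.

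CD14 was the member with the largest change. It was at 2.62 RPKM in untreated cells and 3.67 RPKM after IL-13, against 132 RPKM after vitamin D and 216 RPKM after both. The groups given vitamin D were far above the other two, and cells given both had the highest level. In bulk RNA more cells of a kind and more RNA per cell cannot be told apart, here and for the other genes. The authors' deposited table gives it a log2 rise of 5.57 with vitamin D, with an adjusted p listed as 0, the 2nd largest rise among 15177 genes tested. With both against untreated it rose by 6.21 in the authors' deposited table, with an adjusted p also listed as 0. IL-13 alone raised it by 0.40 in the authors' deposited table (derived SE 0.12, adjusted p = 0.00358), and IL-13 on top of vitamin D by 0.65 in the authors' deposited table (derived SE 0.06, adjusted p = 1.42e-26). The difference between these IL-13 effects was 0.25 (95% interval -0.01 to 0.51), which did not pass the z test on the authors' fold changes over all genes (adjusted p = 0.490).

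CD14 is also a monocyte marker, so leukocyte genes were read beside it. Of 18 leukocyte markers, 17 were under 1 RPKM in all 4 groups and 6 were listed at 0 in all of them: AIF1, CD33, FCGR3A, MPO, MS4A1 and TYROBP. PTPRC, the pan-leukocyte gene that encodes CD45, was listed at 0 in 3 groups and at 0.00214 RPKM with IL-13. CD68, a lysosomal protein gene also active outside leukocytes, made up nearly all of the list's summed level of 48.8 to 61.6 RPKM. It was at 50.8 RPKM untreated and 60.5 with vitamin D, and rose with vitamin D by 0.31 in the authors' deposited table (adjusted p = 2.33e-18). ITGAM, the myeloid integrin gene, went from 0.0349 to 0.105 RPKM with vitamin D, a rise of 0.73 in the authors' deposited table (adjusted p = 0.00399). MARCO, a scavenger receptor gene, went from 0.224 to 0.385 RPKM, a rise of 0.52 in the authors' deposited table (adjusted p = 0.0464). These 3 were the markers that rose among the 4 tested, against 17.5% of all genes tested with vitamin D. With vitamin D, CD14 alone was above the summed level of the whole list.

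LY96, the MD-2 gene, was near the bottom of the range, at 0.0600 RPKM in untreated cells, 0.0901 after IL-13, 0.0518 after vitamin D and 0.0516 after both. Its adjusted p was listed as 1 in all 4 tables, which was taken as not tested. TLR4, the receptor that MD-2 serves, was lower still, at 0.0065 to 0.0132 RPKM. CD14 was therefore the one component of this lipopolysaccharide-sensing group above 1 RPKM, in all 4 groups.

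**Figure D1:**
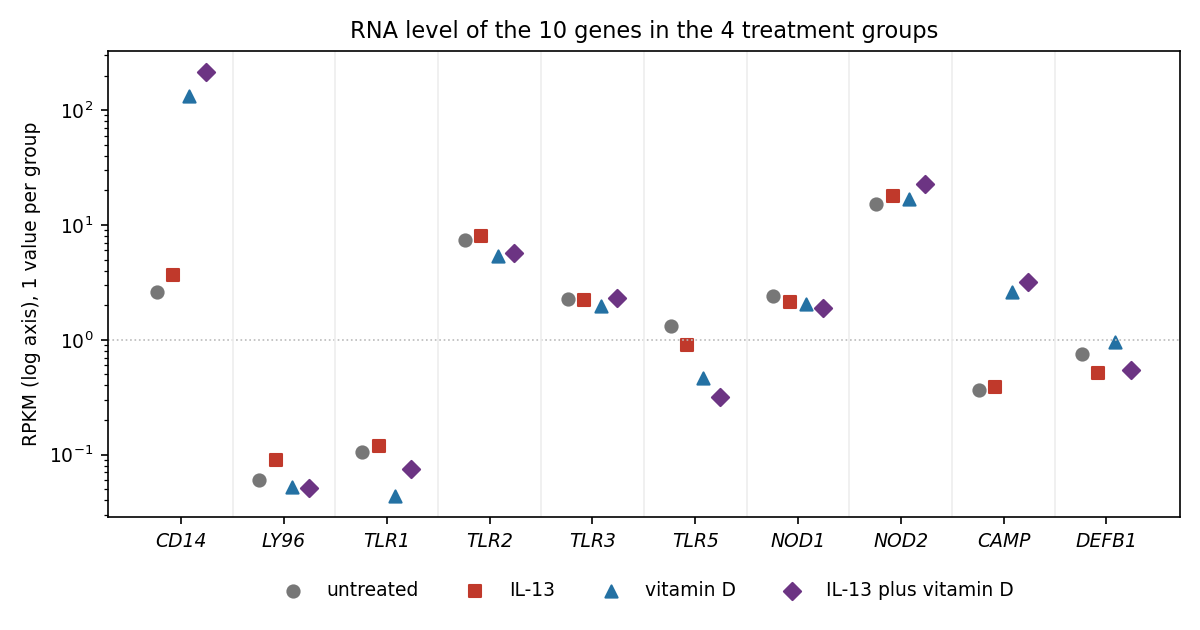
RNA level of the 10 genes, 1 RPKM value per group on a log axis, for untreated cells (grey circles), IL-13 (red squares), vitamin D (blue triangles) and both (purple diamonds); the dotted line marks 1 RPKM. CD14 spans 2.62 to 216 RPKM and CAMP 0.363 to 3.21 RPKM, while TLR5 goes down from 1.32 to 0.320 RPKM and TLR3 stays between 1.97 and 2.31 RPKM.

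Among the Toll-like receptor genes TLR5 fell under every treatment. The flagellin receptor gene (chr1:223282748-223316624, minus strand, hg19) was at 1.32 RPKM untreated, 0.895 after IL-13, 0.468 after vitamin D and 0.320 after both, so the untreated cells were highest and the cells given both were lowest. It fell by 0.53 with IL-13 in the authors' deposited table (derived SE 0.11, adjusted p = 1.73e-05) and by 1.32 with vitamin D (derived SE 0.12, adjusted p = 5.15e-25), the 32nd largest fall among 15177 genes. With both it fell by 1.92 against untreated in the authors' deposited table (adjusted p = 2.99e-40). With both against vitamin D alone it fell by 0.50 in the authors' deposited table (adjusted p = 0.0103), a call that is lost at a threshold of 0.01. The difference between the IL-13 effects was 0.03 (95% interval -0.36 to 0.42).

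TLR2, the lipopeptide receptor gene (chr4:154605441-154627242, plus strand), had the highest level of the Toll-like receptors, at 7.35 RPKM untreated, 8.03 after IL-13, 5.41 after vitamin D and 5.72 after both. Both groups given vitamin D were below both groups without it. It fell by 0.38 with vitamin D in the authors' deposited table (derived SE 0.06, adjusted p = 1.96e-08) and by 0.35 with both against untreated (adjusted p = 1.36e-06). With IL-13 it changed by 0.11 in the authors' deposited table, which did not pass (adjusted p = 0.242).

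TLR3, the double-stranded RNA sensor (chr4:186990309-187006252, plus strand), was at 2.25 RPKM untreated, 2.21 after IL-13, 1.97 after vitamin D and 2.31 after both. No comparison of TLR3 was called, and its log2 changes ran from -0.13 with vitamin D to 0.17 with both against vitamin D in the authors' deposited tables. TLR1, the partner of TLR2, was at 0.104, 0.120, 0.0434 and 0.0744 RPKM in the same order, and its change with vitamin D was -0.42 in the authors' deposited table (adjusted p = 0.121). TLR1 and TLR6 are near-identical over part of their length, so their levels are uncertain; sharing of reads between them was not tested. TLR6, named from the receptor list described further on, went from 0.270 to 0.117 RPKM with vitamin D, a log2 change of -0.87 in the authors' deposited table (adjusted p = 3.25e-05).

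NOD2 rose in each comparison and moved by less than CD14. The peptidoglycan sensor gene was at 15.1 RPKM untreated, 17.9 after IL-13, 16.8 after vitamin D and 22.9 after both, the highest level of the 10 genes in untreated cells. In the authors' deposited tables it rose by 0.22 with IL-13 (derived SE 0.04, adjusted p = 1.73e-06), by 0.20 with vitamin D (derived SE 0.04, adjusted p = 2.12e-06) and by 0.60 with both (derived SE 0.05, adjusted p = 2.83e-31). The log2 ratio of its RPKM with 0.1 added was 0.15 with vitamin D, so the size of that small rise depends on the scale. IL-13 on top of vitamin D raised NOD2 by 0.41 in the authors' deposited table (derived SE 0.05, adjusted p = 1.06e-15), and vitamin D on top of IL-13 by 0.38 in the derived comparison (SE 0.05, z test, adjusted p = 5.41e-12). The IL-13 effect was thus 0.18 larger with vitamin D than without (95% interval 0.06 to 0.31; z test on the authors' fold changes, unadjusted p = 0.0044). Adjusted over 14734 genes that p was 0.125, so a larger effect of the pair than the sum of the single effects was not called for NOD2. Over all genes 10.7% had an unadjusted p under 0.05 in this test.

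NOD1, the related sensor gene (chr7:30464143-30518393, minus strand), was at 2.42 RPKM untreated, 2.14 after IL-13, 2.07 after vitamin D and 1.90 after both. The order went down from untreated to both, and only the largest of these steps was called: NOD1 fell by 0.34 with both against untreated in the authors' deposited table (derived SE 0.09, adjusted p = 0.00126). The changes with a single agent, -0.19 for IL-13 and -0.17 for vitamin D, did not pass in the authors' deposited tables (adjusted p = 0.0878 and 0.104). NOD2 and NOD1 therefore went in opposite directions with both agents.

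CAMP was at 0.363 RPKM untreated, 0.390 after IL-13, 2.60 after vitamin D and 3.21 after both. Both groups without vitamin D were under 1 RPKM and both groups with it were above 2 RPKM. The LL-37 precursor gene rose by 2.07 with vitamin D in the authors' deposited table (derived SE 0.19, adjusted p = 6.3e-25), the 27th largest rise, and by 2.53 with both (adjusted p = 2.67e-30). The log2 ratio of its RPKM with 0.1 added was 2.54 with vitamin D, so the size of the rise depends on the scale. IL-13 changed CAMP by 0.03 alone (adjusted p = 0.940) and by 0.24 on top of vitamin D (adjusted p = 0.238) in the authors' deposited tables. For CAMP the deposited comparisons disagree by 0.23 on the log2 scale, the most of any tested member, so the size of the latter step is uncertain. DEFB1, the beta-defensin 1 gene, was at 0.757 RPKM untreated, 0.514 after IL-13, 0.948 after vitamin D and 0.548 after both. The groups given IL-13 were lower than those without it, and none of these changes was called; the largest was -0.43 for both against vitamin D in the authors' deposited table (adjusted p = 0.123).

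Counted over the members, 9 of the 10 were tested and LY96 was not. With IL-13, 3 of 9 were called, CD14 and NOD2 up and TLR5 down, against 26.3% of all genes tested. With vitamin D, 5 of 9 were called, CD14, CAMP and NOD2 up and TLR2 and TLR5 down, against 32.5%. With both against untreated, 6 of 9 were called, the same 5 and NOD1, against 31.7%. With both against vitamin D, 3 of 9 were called, CD14 and NOD2 up and TLR5 down, against 33.2%. In the derived comparison of both against IL-13, 5 of 9 were called, against 24.1%. CD14 rose there by 5.81 (SE 0.13), CAMP by 2.50 (SE 0.19) and NOD2 by 0.38, and TLR2 fell by 0.46 and TLR5 by 1.38. The SE of CD14 and of CAMP were set by a minimum on the variance, given with the processing. By the other route through the deposited comparisons CAMP rose by 2.27. No member was called in the z test of the difference between the IL-13 effects, against 2.42% of genes (1.41% with a difference above 0 and 1.01% below 0); 1 of 9, NOD2, had an unadjusted p under 0.05. With so few genes, the shares for IL-13 and for both against vitamin D are close to the background. The median log2 change of the members was -0.13 with vitamin D, against -0.0031 over all genes tested.

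**Figure D2:**
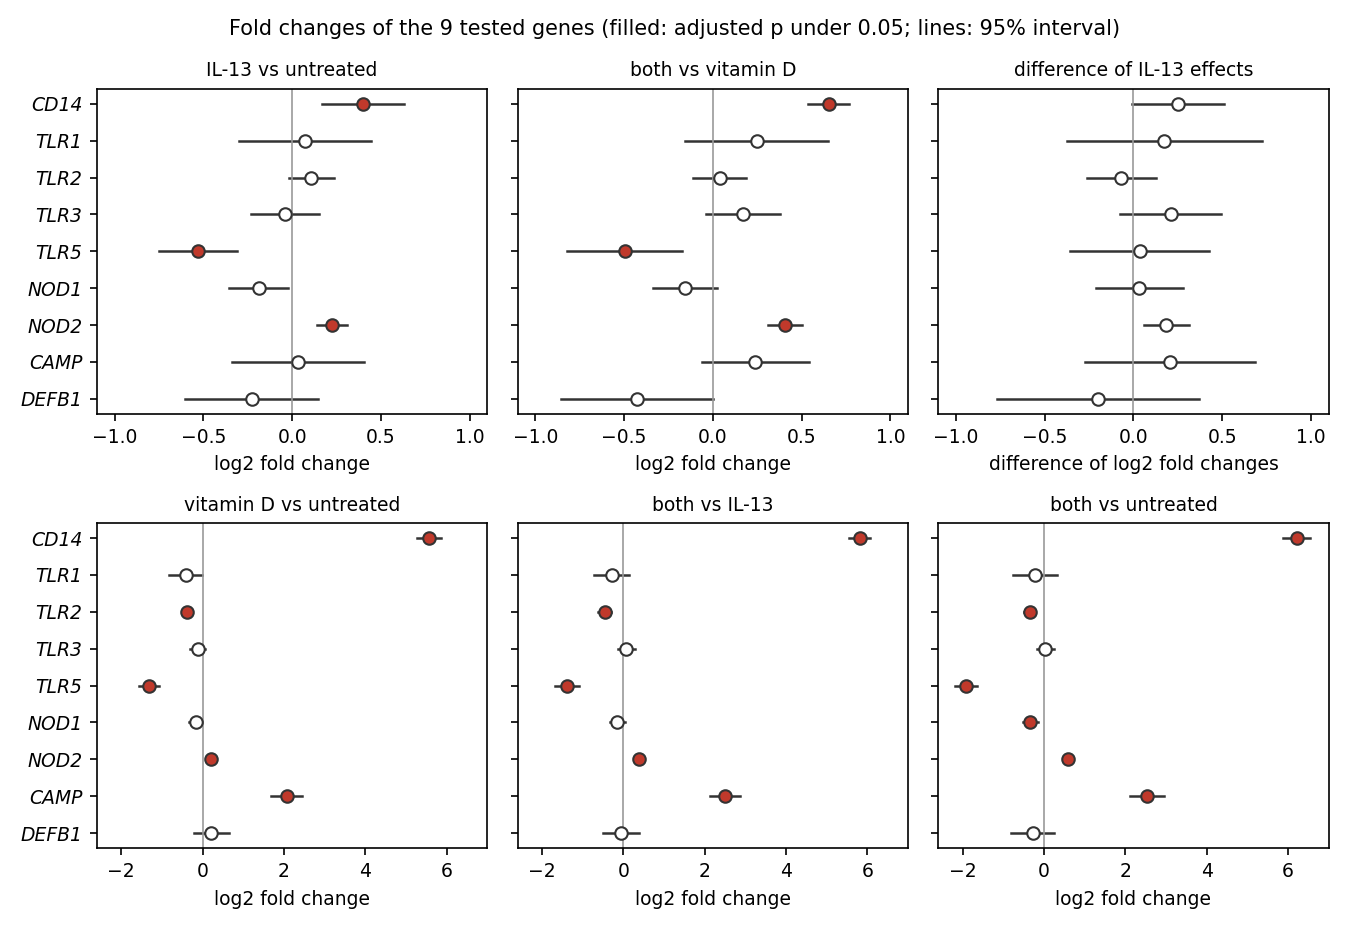
Log2 fold changes of the 9 tested genes in 6 comparisons, with the 95% interval derived from each fold change and its p as a line; filled points have an adjusted p under 0.05, and the upper and lower rows have different horizontal scales. CD14 and CAMP lie far to the right wherever vitamin D is added, TLR5 lies left of 0 in 5 panels, and no point is filled for the difference of IL-13 effects.

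By the 3 log2 changes against untreated cells, the gene nearest to CD14 was IL1RL1, the IL-33 receptor gene, at a distance of 2.45 on the log2 scale. It went from 0.192 RPKM untreated and 0.221 with IL-13 to 5.51 with vitamin D and 4.27 with both. The next were COL13A1 at 3.17 and GCNT3, a mucin glycosyltransferase gene, at 4.05. None of these was close to CD14 in the size of its change. NOD2 had much closer neighbours: FOLR3 at 0.03, CFL2, which encodes a cofilin, at 0.06 and RAB33A, a small GTPase gene, at 0.06.

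The wider pathway was read from 3 lists. Of 34 pattern recognition receptor genes, 25 were tested with each agent alone; 3 rose and 4 fell with IL-13, and 3 rose and 8 fell with vitamin D, against 12.3% of all genes rising and 14% falling with IL-13 and 17.5% and 15.1% with vitamin D. All of the 10 genes but CAMP and DEFB1 are in this list, so its counts are not separate from theirs. CD14 and NOD2 are among the 3 that rose with each agent. TLR5 is among those that fell with each, and TLR2 among those that fell with vitamin D. The list's median change was -0.17 with vitamin D, against -0.0031 over all genes. The largest changes with IL-13 in the authors' deposited table were PGLYRP4 at -1.02 and PGLYRP3 at -0.60, both peptidoglycan recognition protein genes, IFIH1, the cytosolic RNA sensor MDA5, at 0.55 and NLRX1 at -0.54. After TLR6, the largest outside the 10 genes with vitamin D were NLRP10 at -0.54, PGLYRP4 at -0.32 and NLRX1 at 0.22 in the authors' deposited table.

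Of 46 measured adaptors and regulators of receptor signalling, 3 rose and 12 fell with IL-13, and 9 rose and 9 fell with vitamin D, beside the shares over all genes of 12.3% and 14% and of 17.5% and 15.1%. BIRC3, a ubiquitin ligase in NOD and TNF receptor signalling, fell with both agents given singly: by 0.34 with IL-13 and by 1.24 with vitamin D in the authors' deposited tables. It was at 4.13 RPKM untreated, 3.14 with IL-13 and 1.60 with vitamin D. MYD88, the main adaptor of most Toll-like receptors, went from 31.6 to 26.0 RPKM with IL-13, a change of -0.29 in the authors' deposited table. CYLD, a deubiquitinase that restrains NF-kappaB signalling, rose with IL-13 by 0.33 and PELI1, a ubiquitin ligase of the pathway, fell by 0.40 in the authors' deposited table. With vitamin D, PYCARD, the inflammasome adaptor, rose by 0.53 in the authors' deposited table, IKBKE, a kinase, fell by 0.45 and TNFAIP3, the inhibitor A20, fell by 0.39.

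Of 17 tested antimicrobial genes and their proteases, CAMP and DEFB1 among them, 1 rose and 8 fell with IL-13, against 12.3% and 14% of all genes tested, and 9 rose and 1 fell with vitamin D, against 17.5% and 15.1%. Their median change was -0.23 with IL-13 and 0.21 with vitamin D, against 0.0027 and -0.0031 over all genes. KLK7, an epidermal kallikrein protease, rose with both agents given singly, by 0.49 with IL-13 and 0.65 with vitamin D in the authors' deposited tables. KLK5, a kallikrein that cuts the CAMP precursor in skin, went from 141 to 217 RPKM with vitamin D. In the authors' deposited table that is a rise of 0.68, beside 0.52 for S100A7 and 0.46 for ADM. The calprotectin genes S100A8 and S100A9 fell with IL-13 by 0.38 and 0.37 and S100A12 by 0.64 in the authors' deposited table. With both against vitamin D, 2 of 17 rose and 9 fell, against 16.4% and 16.9% of all genes tested.

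ChIP regions were taken as the authors called and assigned them to genes, on hg19, with the fold enrichment of the summit over background and a -log10 q for each as deposited. With 1 library per condition there is no replicate check of any ChIP value and no test was made. The VDR library with vitamin D held 9224 regions and that of untreated cells 1834; the STAT6 libraries held 4851 with IL-13 and 1173 untreated. A VDR region with vitamin D was assigned to 5 of the 10 genes, CD14, TLR3, NOD1, NOD2 and CAMP, against 23.6% of all 23533 genes and 31.6% of the 11544 genes expressed at 1 RPKM or more. A STAT6 region with IL-13 was assigned to 1 of the 10, NOD2, against 9.87% of all genes.

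CAMP had the strongest factor region of the 10 genes. With vitamin D a VDR region of 1703 bases at chr3:48263534-48265236 covered its promoter, with a fold enrichment of 120 and a -log10 q of 453, ranked 2nd of 9224 by fold. Its summit lay 462 bases before the listed 5′ end of the gene (chr3:48264837-48266981, plus strand). In untreated cells, where CAMP was at 0.363 RPKM, a VDR region was already called at chr3:48263652-48264977, with a fold enrichment of 59.1, ranked 10th of 1834, and its summit 451 bases before the 5′ end. A 2nd, weaker region in untreated cells had a fold of 6.50. No STAT6 region was assigned to CAMP; the nearest summit with IL-13 was 45.1 kb away.

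CD14 had a VDR region of 954 bases with vitamin D at chr5:140012445-140013398, with a fold enrichment of 26.1 and a -log10 q of 63.7, ranked 566th of 9224. It covered the listed 5′ end of the gene (chr5:140011313-140013286, minus strand), and its summit lay 405 bases inside. In untreated cells a region of 229 bases was called there with a fold of 4.70. The size of the VDR region did not follow the size of the RNA change: CAMP had the higher VDR enrichment and CD14 the larger rise. The nearest STAT6 summit with IL-13 was 67.9 kb from the 5′ end of CD14.

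NOD2 was the one gene of the 10 with a site called for both factors. With IL-13 a STAT6 region of 1642 bases at chr16:50733266-50734907 lay over an exon by the authors' annotation, with a fold enrichment of 21.3 at its main summit, a -log10 q of 85.1 and a rank of 69 of 4851. With vitamin D a VDR region of 276 bases at chr16:50733764-50734039 lay wholly inside it, with a fold of 7.07, a -log10 q of 7.85 and a rank of 4317. The STAT6 and VDR summits were 51 bases apart, at 2811 and 2862 bases after the listed 5′ end of NOD2 (chr16:50731050-50766987, plus strand). No STAT6 region and no VDR region was called there in untreated cells. Over the whole lists 312 of 4851 STAT6 regions, 6.43%, overlapped a VDR region by at least 1 base, and 316 of 9224 VDR regions, 3.43%, overlapped a STAT6 region. No ChIP library was of STAT6 with vitamin D or of VDR with IL-13, so these are sites called in differently treated cells. A stronger VDR region, with a fold of 12.1 at chr16:50719616-50720514, lay 11063 bases before the 5′ end and was assigned to NOD2 and its neighbour SNX20.

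TLR3 had a VDR region with vitamin D at chr4:186990696-186991461, with its summit 680 bases inside the gene and a fold of 12.5, and a weaker one at 10035 bases with a fold of 4.51, while its RNA change with vitamin D was not called. NOD1 had a VDR region with a fold of 3.52 and a -log10 q of 1.45, near the weak end of the list, at 71546 bases from the 5′ end. TLR2 and TLR5, whose RNA fell with vitamin D, had no factor region; the nearest VDR summits were 201 kb and 610 kb from their 5′ ends. TLR1, LY96 and DEFB1 had none either. Of the members tested with vitamin D, 3 of the 3 that rose, 0 of the 2 that fell and 2 of the 4 that were not called had a VDR region. Over all genes these shares were 54.1% of 2649 that rose, 30.5% of 2290 that fell and 23.1% of 10238 not called, so the members are too few to be set apart from the rest.

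**Figure D3:**
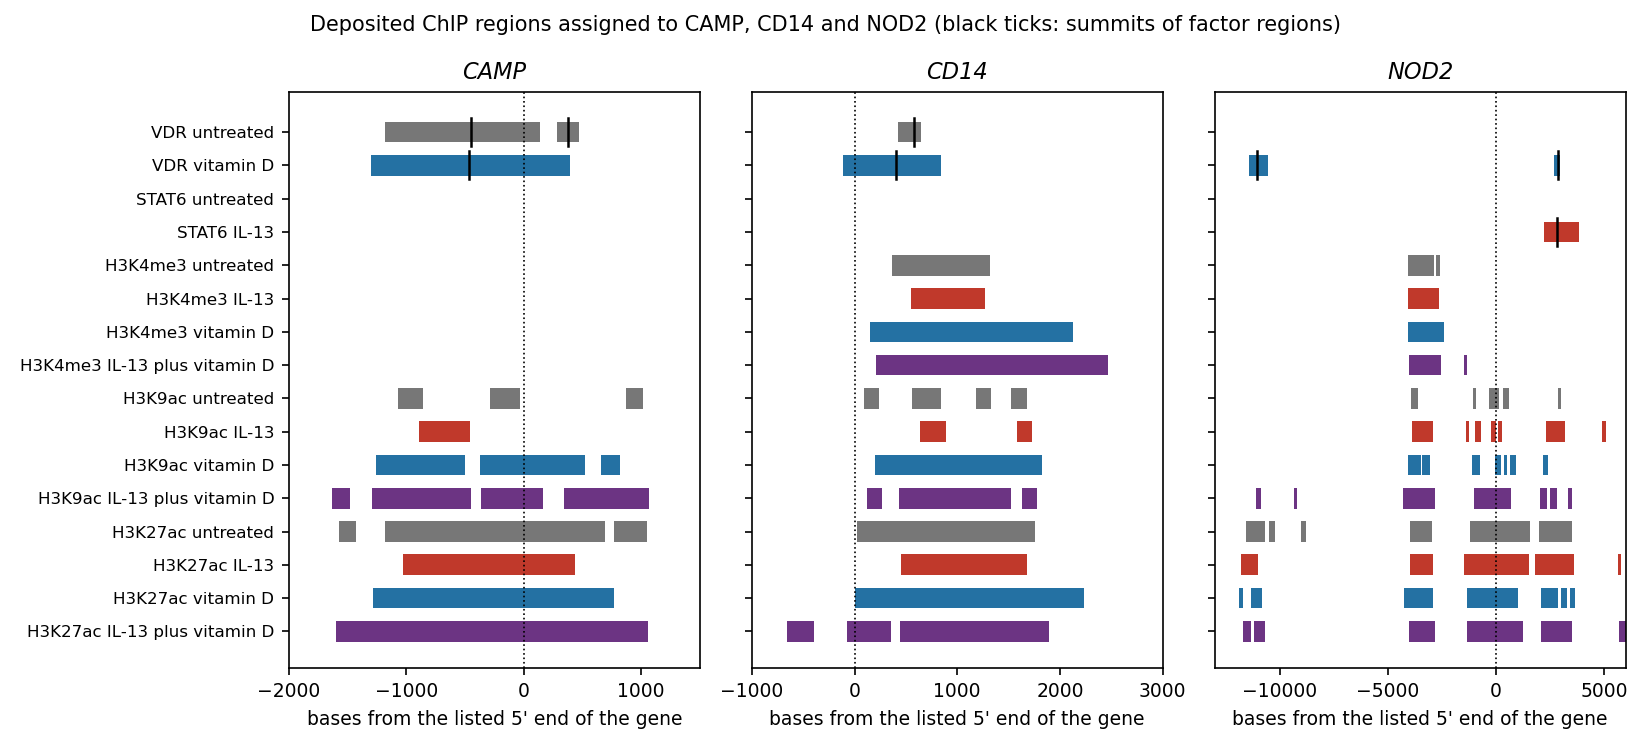
Regions called in each of 16 ChIP libraries at CAMP, CD14 and NOD2, by distance in bases from the listed 5′ end of the gene (dotted line), coloured by treatment as in the RNA plot; black ticks mark the main summits of VDR and STAT6 regions. The VDR regions cover the promoters of CAMP and CD14, and at NOD2 the STAT6 and VDR summits lie at 2811 and 2862 bases. CAMP has no H3K4me3 region in any library, and in the stretch of NOD2 that is plotted these regions lie between positions -4072 and -2403, apart from 1 small region with both agents; 3 weak regions, the nearest starting 22188 bases inside NOD2, are outside the plot.

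H3K4me3 marks active promoters, and H3K9ac and H3K27ac mark active promoters and enhancers. Over the 12 histone libraries 231 regions were assigned to the 10 genes: 74 to NOD2, 40 to NOD1, 33 to TLR5, 27 to TLR2, 21 to CD14, 18 to CAMP, 17 to TLR3 and 1 to LY96. TLR1 and DEFB1 had none. Fold enrichments depend on the depth of a library, and the H3K27ac library of untreated cells had a background pileup of 2.40, against 1.51 to 1.73 in the other 3. For that reason each region was also ranked among the regions that were called in all 4 libraries of a mark, from 0 for the lowest fold to 100 for the highest.

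At the CD14 promoter the H3K4me3 fold enrichment was 6.85 untreated, 10.2 after IL-13, 20.2 after vitamin D and 24.9 after both, and the width of the main region was 957, 729, 1983 and 2255 bases. Both libraries with vitamin D had the taller and wider regions. Its percentile among 16106 common regions went from 8.49 untreated to 25.7 with vitamin D, a gain that 3.19% of these regions matched or passed, and from 17.4 with IL-13 to 32.2 with both. For H3K27ac the CD14 percentile among 33646 common regions was 41.9 untreated, 59.3 after IL-13, 86.8 after vitamin D and 82.9 after both, and 0.214% of regions gained as much from untreated to vitamin D. From IL-13 to both, whose libraries are closer in background, 5.88% of regions gained as much. The H3K27ac folds at CD14 were 10.4, 9.26, 17.9 and 14.7 in the same order of treatments. With IL-13 alone the fold was thus lower than untreated, while the percentile was higher. The H3K9ac percentile was 25.4, 15.2, 38.2 and 83.4 in the same order, from pileups of 7, 6, 8 and 12, so steps of a few fragments decide it.

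CAMP had H3K27ac and H3K9ac regions over its VDR site in all 4 treatments and no H3K4me3 region in any. Its H3K27ac percentile was 57.1 untreated, 59.3 after IL-13, 86.8 after vitamin D and 82.9 after both, and 1.68% of the common regions gained as much from untreated to vitamin D and 5.88% from IL-13 to both. As for CD14, the libraries with vitamin D ranked higher. The fold enrichments were 13.4, 9.26, 17.9 and 14.7.

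At the NOD2 site called for both factors, the H3K27ac fold was 15.4 untreated, 14.5 after IL-13, 12.1 after vitamin D and 17.9 after both, with percentiles of 65.8, 83.9, 65.5 and 91.6. The site thus carried H3K27ac before treatment, and the libraries with IL-13 ranked higher than those without it. That order was not particular to the site, as every other H3K27ac region of NOD2 called in all 4 libraries had it in its percentiles. The folds at the site did not have it. The NOD2 promoter region had percentiles of 60.7, 78.9, 68.3 and 78.3 in the same order of treatments. Its folds of 14.2, 13.2, 12.7 and 13.4 were highest untreated. An upstream region had percentiles of 46.8, 76.1, 62.6 and 82.9, and its folds of 11.3, 12.6, 11.6 and 14.7 were also higher with IL-13. H3K9ac had a fold of 3.60 untreated, 5.39 with IL-13 and 6.14 with both over the VDR region there. Those folds came from pileups of 4, 7 and 8, so steps of a few fragments decide their order. With vitamin D an H3K9ac region with a fold of 5.45 lay at the edge of the STAT6 region and did not reach the VDR region. H3K4me3 had no region there in any library.

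At the promoters of TLR2, TLR5, NOD1 and TLR3 the marks differed in order. TLR2 had H3K4me3 percentiles of 41.5 untreated, 37.1 after IL-13, 52.4 after vitamin D and 50.3 after both. These were higher in the libraries with vitamin D, where its RNA was lower. Its H3K27ac percentiles were 46.8, 55.1, 36.3 and 40.5, in the same order of treatments as its RNA. The H3K27ac folds, 11.3, 8.60, 7.51 and 7.03, were highest untreated and lowest with both, unlike its RNA. TLR5 had H3K4me3 percentiles between 25.8 and 31.3, and H3K27ac percentiles of 11.1, 11.5, 25.6 and 18.0. NOD1 stayed between 38.8 and 43.4 for H3K4me3, and its H3K27ac percentiles were 75.1, 81.5, 70.9 and 73.0. TLR3 had H3K4me3 percentiles of 20.9, 21.0, 13.7 and 18.3.

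**Figure D4:**
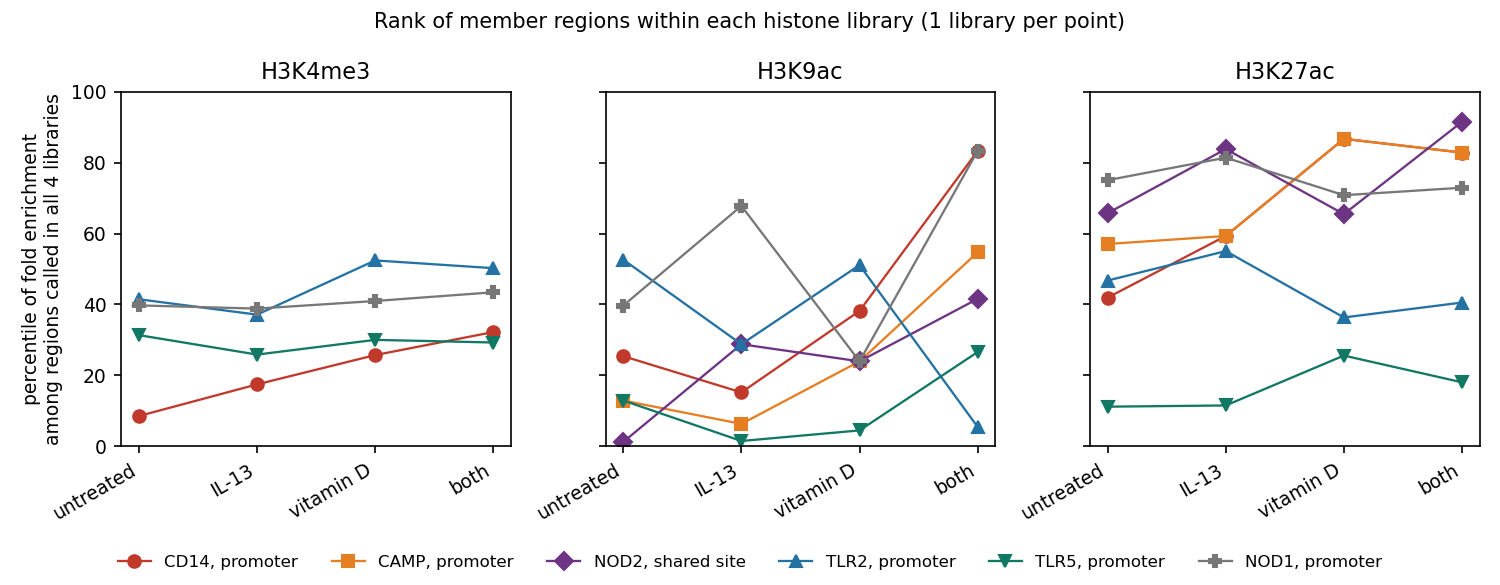
Percentile of a region's fold enrichment among all regions called in the 4 libraries of the mark, by treatment, for the promoters of CD14, CAMP, TLR2, TLR5 and NOD1 and for the NOD2 site called for both factors; each point is 1 library and has no error. For H3K27ac the CD14 and CAMP points coincide at 59.3, 86.8 and 82.9, above their untreated values of 41.9 and 57.1, and for H3K4me3 CD14 goes from 8.49 to 32.2 while NOD1 stays between 38.8 and 43.4.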

How the data were processed

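RNA was measured in 12 samples and chromatin in 16. Per the submitters' processing notes the builds were GRCh37 and hg19, and the tools were MACS2, Bowtie, STAR, SAMtools and Trim Galore; the sources used here give neither their versions nor their roles. The authors deposited 4 RNA tables with 1 RPKM per group, log2 fold changes, p-values and adjusted p-values, per the file headers; their test is not given. The table named for IL-13 against both holds vitamin D against both: its fold changes correlated at 0.995 with the RPKM ratio to vitamin D and at -0.01 with that to IL-13 (10903 genes). Genes with an adjusted p of 1 were taken as not tested.

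The authors deposited 1 peak list per ChIP library, with a pileup signal at each summit, a fold enrichment, -log10 p and -log10 q, and the assigned gene, per the file headers. Summits with the same start and end were joined into 1 region. In the VDR library with vitamin D 0.0955% of pileups were whole, so its pileups had been scaled. The sources used here do not say whether a control library was used. The number of reads per library is unknown, so no interval is given for a ChIP value.

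Both against IL-13 was derived as the difference of 2 deposited comparisons, and the difference between IL-13 effects from 2 comparisons that share no sample. Standard errors of the deposited comparisons came from each fold change and p, and with a p listed as 0 they are upper bounds. For the difference between IL-13 effects the 2 variances were summed. For both against IL-13, those of IL-13 against untreated and both against vitamin D were summed and that of vitamin D against untreated subtracted. The mean of the 4 deposited variances was the minimum allowed. That minimum set the SE of CD14 and of CAMP, which are approximate and not upper bounds. These comparisons were tested with z tests, with Benjamini-Hochberg adjustment at 0.05 over 14734 genes, after 11 genes on which the 4 tables disagree by over 0.5 were left out. The code for these tests was first tried on simulated fold changes. Computations used Python 3.11.15, numpy 2.4.6, pandas 2.3.3 and scipy 1.17.1.

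The 10 genes and the 3 pathway lists were chosen with earlier results of these data known. All 10 are named. From each list the 4 largest called changes per single agent are named, and for CD14 and NOD2 the 3 genes nearest in the log2 changes against untreated. OTULIN and S100A15 were not found by symbol. Alternatives were other thresholds, adjustments, pseudocounts, filters, derivation routes, peak minimums and overlap rules.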

Additional observations from a re-analysis of the deposited data

How the results depend on the processing

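Of 37 alternatives for counts over the 10 genes, 32 stayed within 1.5 times the reported count, and 5 ChIP counts moved, 4 under stricter peak minimums and 1 under a stricter overlap rule. At a -log10 q of at least 10 the factor regions went from 11 to 6, the histone regions from 231 to 72 and the NOD2 site called for both factors from 1 to 0. At a fold of at least 5 the histone regions went to 135. With summits within 50 bases, a rule chosen after the distance of 51 bases was seen, that site also went to 0; within 100 bases it stayed. Of 238 alternatives for single genes 2 reversed the sign of a value that was not called: by the other route through the tables DEFB1 with both against IL-13 went from -0.055 to 0.011 and the TLR5 difference of IL-13 effects from 0.034 to -0.069. A further 17 moved the value and 1 ended a call, that of TLR5 with both against vitamin D at a threshold of 0.01. The values that moved were log2 RPKM ratios, mostly with a pseudocount of 1, such as 1.40 for CAMP and -0.66 for TLR5 with vitamin D. No paired analysis was possible because the RNA tables give 1 value per group and each ChIP condition has 1 library. For the same reason no replicate could be left out. RPKM below 1 rests on few reads of unknown number, so changes there may be too small to detect. This holds for LY96, TLR1 and DEFB1 in all groups, for TLR5 in all but untreated cells and for CAMP without vitamin D. Keeping only members at 1 RPKM or more left TLR5 out of both against vitamin D, where members called went from 3 to 2.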

Other observations

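CAMP reached 2.60 RPKM with vitamin D and had no H3K4me3 region. Of 3257 genes between 1.30 and 5.19 RPKM with vitamin D, within a factor of 2 of CAMP, 93.5% had an H3K4me3 region assigned in the same treatment and 212 had none. TLR5, at 0.468 RPKM, had 2. CAMP was chosen for this count after its regions were seen.

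The main H3K4me3 region of NOD2 had its summit 3316 to 3487 bases before the listed 5′ end in the 4 libraries, with fold enrichments of 20.6 to 34.8, and none lay over that 5′ end. The RefSeq table on GRCh38.p14 lists 2 start sites for NOD2, 2432 bases apart; whether the region belongs to the other one was not tested, since positions were not carried between builds.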
